A study of Sus scrofa with 9 samples.

Results

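The circadian clock genes were followed through 9 RNA libraries of porcine valvular interstitial cells (PVICs), the fibroblast-like cells that maintain the aortic valve. The 10 genes *ARNTL*, *CLOCK*, *PER2*, *PER3*, *CRY1*, *CRY2*, *NR1D1*, *NR1D2*, *DBP* and *BHLHE40* were taken by symbol from the 19535 genes of the count table. All 10 were present once and all 10 had enough counts for testing, from 105 counts for *DBP* in its lowest library to 40666 counts for *BHLHE40* in its highest.

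The cells came from wild-type pigs aged 4 to 5 months and were kept for 3 days in DMEM (control), in osteogenic induced medium (OIM), or in this medium plus 50 ng/mL basic fibroblast growth factor (bFGF). OIM holds ascorbic acid at 50 µg/mL, insulin, and sodium dihydrogen phosphate at 2 mmol/L, and the bFGF-treated cells received these agents too. Each group had 3 libraries, and neither the labels nor the paper says whether these came from separate animals or cultures, so the p-values measure the spread between these libraries only. The paper's methods give a shorter treatment before RNA extraction than the 3 days of the labels.

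The mammalian clock is a loop of transcription and feedback that runs in nearly every cell. *ARNTL* (also called *BMAL1*) and *CLOCK* encode the partners of an activator that binds E-box sequences and switches on the *PER* and *CRY* genes, whose products then enter the nucleus and silence the activator. A second loop joins *NR1D1* and *NR1D2* (REV-ERBα and REV-ERBβ), which repress *ARNTL*, with the ROR receptors, which activate it through shared elements called ROREs. Output factors such as *DBP* act through D-boxes, against the repressor *NFIL3*, and *BHLHE40* (DEC1) encodes an E-box repressor that also answers to growth factors, hypoxia and TGF-β. In culture, cells that have not been set to a common phase run out of step, and each library here is a bulk sample of 1 time. A shift of phase and a change of the mean level cannot be told apart in such samples, nor can fewer expressing cells and less RNA per cell.

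Total counts on genes were lower in the bFGF-treated libraries (46773376 to 48270827) than in the control libraries (57075793 to 64723837) and the OIM libraries (57682710 to 67371523). The top 10 genes by abundance held 8.35% to 8.45% of all gene counts in the bFGF-treated libraries and 12.7% to 13.7% in the others. OIM replicate 2 stood apart from the other OIM libraries, with a mean chi-square per gene of 18.4 against each of them, where the other pairs within groups had 4.64 to 11.3. Without it the calls among the 10 clock genes were the same. Values are given as CPM, counts brought to a common library size, after TMM scaling, which evens out the libraries over most genes. With library totals alone the median of all genes tested moved to 0.22 (log2) in bFGF against OIM, from -0.0029 with TMM, so a change near that size rests on the scaling. All 8 fibroblast markers checked were detected in every group, with a summed level of 62292 to 67421 in control, 58987 to 62210 in OIM and 35543 to 35892 CPM with bFGF. Of these 8, 2 were called higher and 4 lower in bFGF against OIM. The 5 smooth muscle markers summed to 9568 to 10097 in control, 9853 to 13055 in OIM and 1537 to 1713 CPM with bFGF, and all 5 fell in bFGF against OIM. The 7 endothelial markers summed to 20.1 to 23.0 CPM in the control and OIM libraries and to 33.0 to 35.9 CPM in bFGF, and 5 of them rose in bFGF against OIM. The 6 blood and macrophage markers summed to 12.8 to 16.0 CPM in the control and OIM libraries and to 8.23 to 8.96 CPM in bFGF, with *HBB* at 0 counts throughout, and 1 of the 4 tested fell in bFGF against OIM. Of all genes tested, 36.2% were called in bFGF against OIM (17.7% higher and 18.4% lower). The part of these marker shifts in the clock gene values was not tested.

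The elements through which the clock proteins act were looked up in the 300 bases around each annotated gene start (250 before, 50 from the start on) in Sscrofa11.1, on both strands. The searches were for the E-box CACGTG, the weaker E′-box CACGTT, the D-box (TTATGTAA or TTATGCAA) and the RORE. Among the 10 clock genes, 1 window held an E-box, 3 an E′-box, 1 a D-box and 1 an RORE, and the shares among 19556 protein-coding promoters were 7.92%, 5.32%, 1.31% and 0.302%. These are the 6 matches, printed because they mark which of the genes carry a loop element next to the start, with the motif in capitals and read along the strand of the gene (AACGTG is the E′-box read from the other strand).
PER3 E-box, chr6:68487616-68487645, plus strand: gcggagccacgtCACGTGgcgcgcgggggg
PER3 D-box, chr6:68487513-68487542, plus strand: ctcgcctgcgcTTATGTAAcccgggctccg
DBP RORE, chr6:53993071-53993099, minus strand: cattgggcaAATGTAGGTCAgggtcccgc
BHLHE40 E′-box, chr13:61525883-61525912, plus strand: cccagtctggtcAACGTGtgaatcccagtt
CRY2 E′-box, chr2:16620503-16620532, minus strand: acacatggtgggAACGTGaggaggcggggc
NR1D1 E′-box, chr12:22263505-22263534, plus strand: cgcacggagctcAACGTGcctgctgctgga
The *PER3* window was the only one of the 10 with both an E-box and a D-box, which begin 6 and 110 bases before the annotated start. A match of letters is a description and does not show that a factor binds there, and the other windows only lack these letters.

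Scaled to the length of the merged exons, *BHLHE40* was the most abundant of the 10 in every group, with 208 ± 4.35 CPM per kb in control (SD, n = 3). *NR1D2* followed at 25.6 ± 0.147, *CLOCK* at 12.4 ± 0.421 and *ARNTL* at 5.79 ± 0.218 CPM per kb in control, and in all 3 groups these 4 genes held this order with no overlap between the libraries of neighbours. The other 6 genes lay between 0.979 and 1.99 CPM per kb in control. Within them the libraries of *NR1D1* and *CRY2*, of *PER2* and *PER3*, and of *PER3* and *DBP* overlapped, so these neighbours were not separated beyond their spread. *PER3* was eighth in control and ninth in OIM, and it was sixth in bFGF, where its libraries overlapped only those of *NR1D1* above it. *DBP* was eighth in OIM and last in bFGF, where its libraries overlapped those of *CRY1* above it. The length taken matters most for *CRY1*, whose merged exons span 17277 bases and whose longest transcript has 9350 bases. With the longest transcript its control level was 1.81 in place of 0.979 CPM per kb, and it stood seventh in place of last, overlapping with *CRY2* above it and *DBP* below it.

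**Figure D1:**
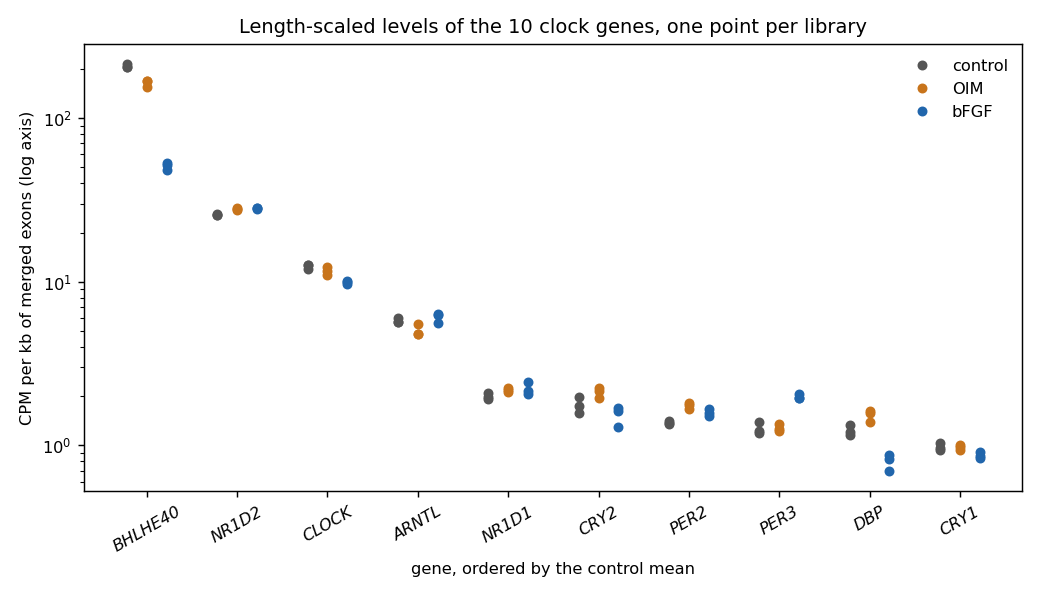
CPM per kb of merged exons (log axis) of the 10 clock genes, ordered by the control mean, with 1 point per library in control, OIM and bFGF. *BHLHE40*, *NR1D2*, *CLOCK* and *ARNTL* keep their order in each group, and *DBP* stands above *PER3* in OIM and below it in bFGF.

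The first comparison asks what osteogenic medium does to the clock genes. Of the 10, 0 passed both an adjusted p of 0.05 and a log2 fold change of 0.5 in OIM against control (from edgeR's quasi-likelihood fit and Benjamini-Hochberg adjustment over all genes, as for every adjusted p here), and DESeq2 called 0 as well. Over all 13662 genes tested, 2.35% were called (1.49% higher and 0.864% lower). At the adjusted p alone 3 clock genes differed, *PER2* and *NR1D2* higher and *BHLHE40* lower, where the background is 13.6% (7.69% higher and 5.87% lower), and 5 were under an unadjusted p of 0.05, as were 26.2% of all genes. The libraries of OIM and control did not overlap in 6 of the 10 genes, against 28.7% of all genes tested, with 4 higher and 2 lower in OIM. The median log2 fold change of the 10 was 0.064, and that of all genes was -0.0019.

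The second comparison asks what bFGF adds to osteogenic medium. Here *PER3* rose, *BHLHE40* and *DBP* fell, and the other 7 were not called. The share called was 36.2% of all genes tested (17.7% higher and 18.4% lower), so 3 of 10 lies near the background. DESeq2 called 3 of the 10, and all 3 were those called by edgeR. At the adjusted p alone 6 of the 10 differed, 2 higher and 4 lower, where the background is 67.4% (33.8% higher and 33.5% lower). In 8 of the 10 genes the bFGF-treated and OIM libraries did not overlap, against 72.1% of all genes. The median of the 10 was -0.15, and that of all genes was -0.0029.

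**Figure D2:**
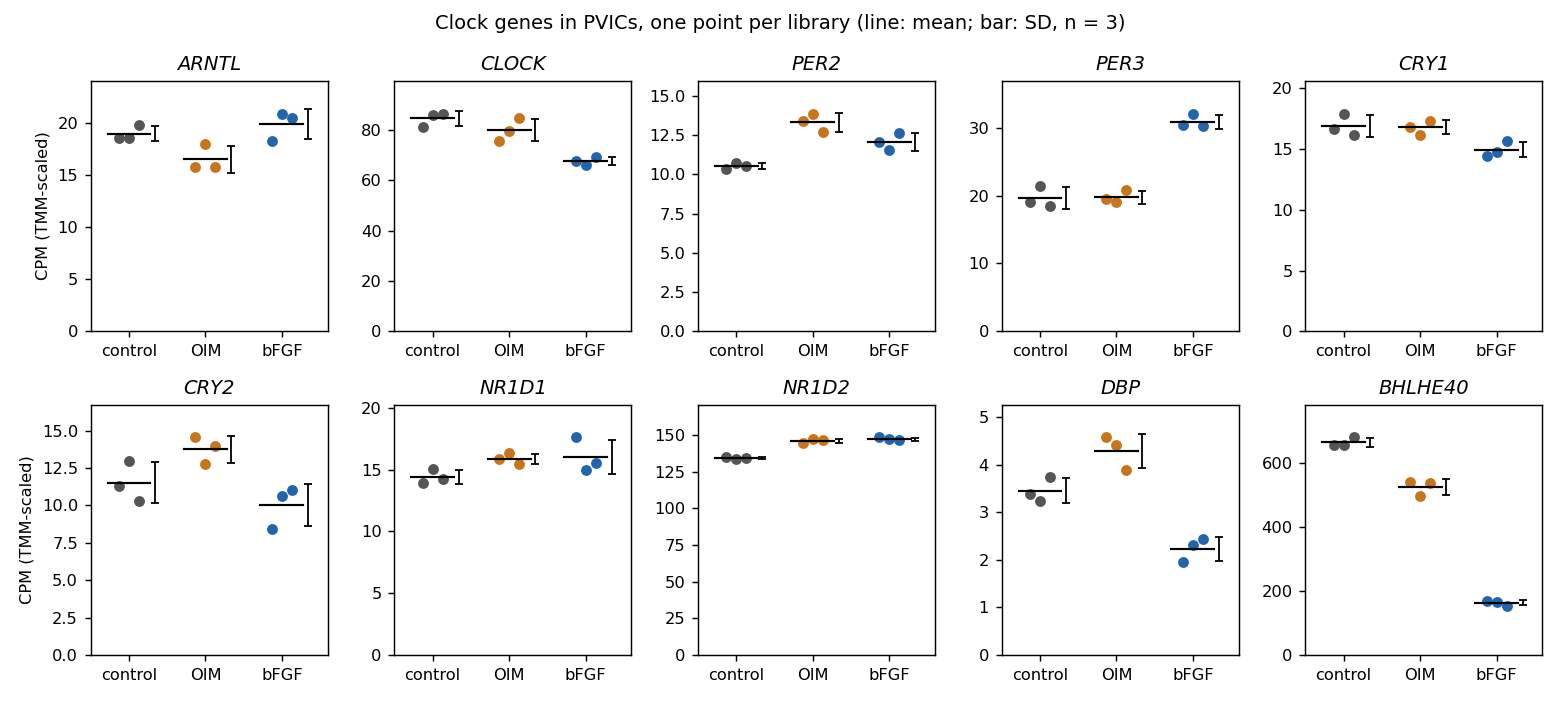
CPM (TMM-scaled, linear axes from 0) of the 10 clock genes, with 1 point per library, a line at the group mean and a bar for the SD (n = 3). The bFGF-treated points of *PER3* lie above, and those of *BHLHE40* and *DBP* below, all control and OIM points.

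**Figure D3:**
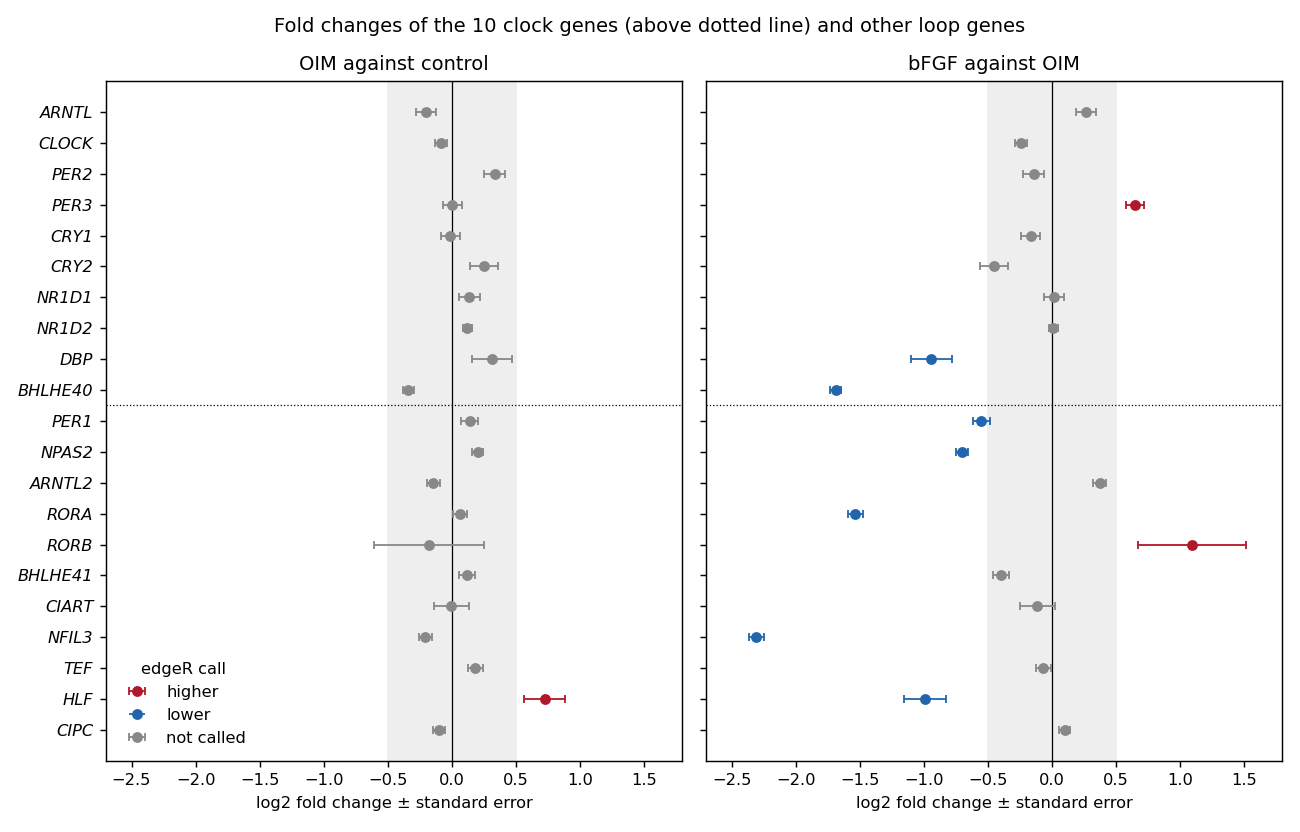
Log2 fold changes with standard errors in OIM against control (left) and bFGF against OIM (right) for the 10 clock genes, above the dotted line, and 11 other loop genes, below it. The grey band spans the fold limit of 0.5, and colour marks the edgeR call. Of the 10, *PER3* is called higher and *DBP* and *BHLHE40* lower with bFGF, and in OIM against control the only gene called is *HLF*.

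*BHLHE40* (chromosome 13, 61526121 to 61533686, plus strand) showed the largest change among the 10. Its level was 658, 656 and 681 CPM in the control libraries, 542, 496 and 539 CPM in OIM, and 170, 166 and 154 CPM in bFGF. The 3 groups did not overlap, and control was highest. The fall in bFGF against OIM was 3.22-fold, a log2 fold change of -1.69 (standard error 0.043, edgeR adjusted p = 1.96e-17). OIM against control gave -0.34 (standard error 0.041, edgeR adjusted p = 9.33e-06), which is under the fold limit, and bFGF against control gave -2.03 (standard error 0.043, edgeR adjusted p = 1.33e-18). The comparisons share libraries and are not independent of each other. Its paralogue *BHLHE41* (DEC2) had 44.4 ± 0.634 CPM in OIM and 33.8 ± 3.18 with bFGF (SD, n = 3), a difference of -0.39 on the log2 scale (edgeR adjusted p = 1.47e-05) that is also under the fold limit. *BHLHE41* supplied 4.81% ± 0.305 of the summed length-scaled level of the pair in control, 6.48% ± 0.297 in OIM and 14.5% ± 1.18 in bFGF (SD, n = 3). Such a share is formed within a library and does not depend on the scaling between libraries, but it does depend on the length taken for each gene.

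In the negative limb, *PER3* (chromosome 6, 68487634 to 68548718, plus strand) rose with bFGF. Its level was 19.0, 21.5 and 18.5 in control, 19.5, 19.0 and 20.8 in OIM, and 30.3, 32.1 and 30.3 CPM with bFGF. Control and OIM overlapped, and every bFGF-treated library lay above both. The log2 fold change was 0.65 against OIM (standard error 0.070, edgeR adjusted p = 8.22e-08) and 0.65 against control (edgeR adjusted p = 6.69e-08), whereas OIM against control gave 0.0059 (edgeR adjusted p = 0.972).

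The other period genes were not called higher. *PER2* (chromosome 15, 137793419 to 137837854, minus strand) had 10.4, 10.8 and 10.5 in control, 13.4, 13.9 and 12.7 in OIM, and 12.1, 11.5 and 12.7 CPM with bFGF. Every OIM library was above every control library, by 0.34 on the log2 scale (standard error 0.082, edgeR adjusted p = 0.00859), under the fold limit. The bFGF-treated libraries lay just below those of OIM, by -0.14 (edgeR adjusted p = 0.138), and with library totals alone this difference was 0.080. *PER1*, the third period gene, had 30.1 ± 1.72 CPM in OIM and 20.6 ± 1.29 with bFGF (SD, n = 3) and fell by 0.55 on the log2 scale (standard error 0.067, edgeR adjusted p = 4.28e-07). With library totals alone the change of *PER1* was -0.33, which does not reach the fold limit. As a share of the summed length-scaled level of the 3 genes, *PER3* made up 17.8% ± 0.720 in control, 16.1% ± 0.982 in OIM and 28.8% ± 1.63 in bFGF, and *PER1* made up 62.7% ± 0.261, 62.0% ± 1.43 and 48.4% ± 1.33 (SD, n = 3). The shares of *PER2* were 19.4% ± 0.464, 22.0% ± 1.28 and 22.8% ± 0.603 (SD, n = 3). With the longest transcripts in place of merged exons, the shares of *PER3* were 20.5%, 18.5% and 32.3%.

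**Figure D4:**
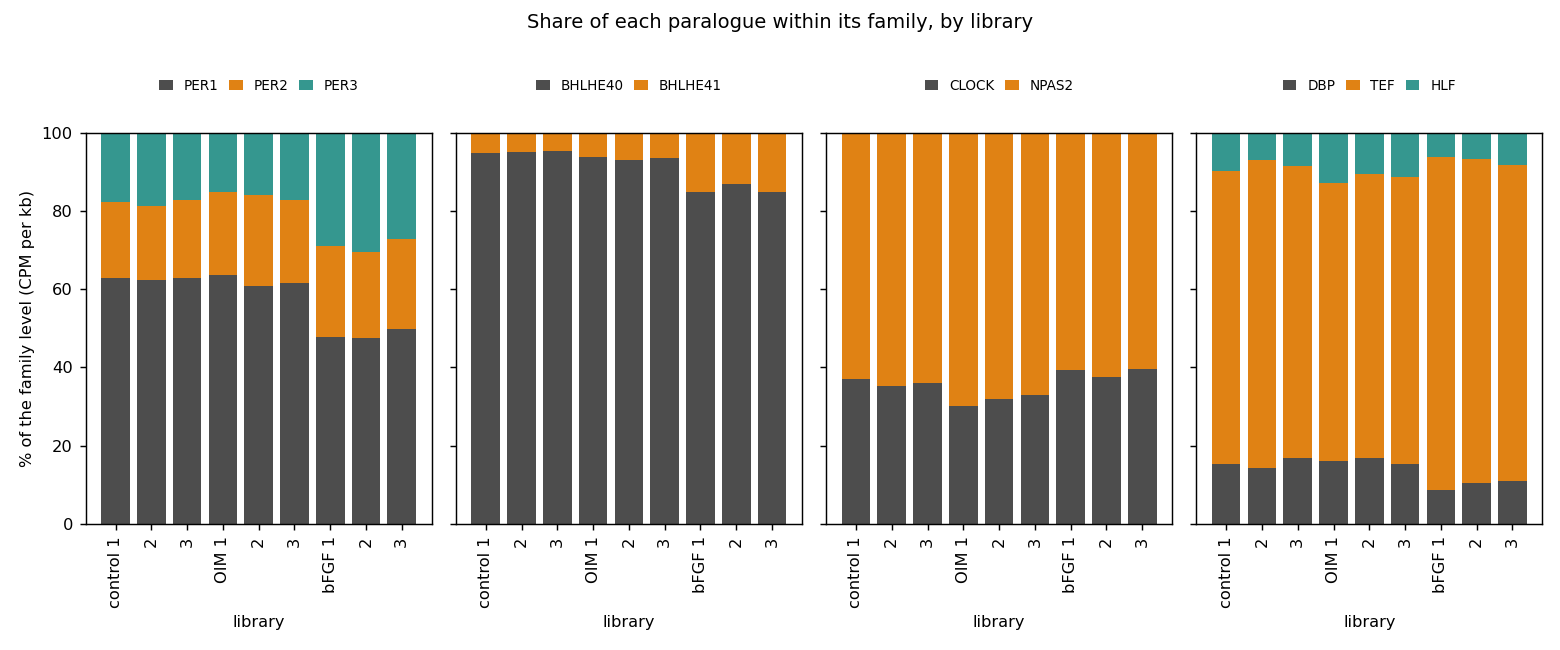
Stacked bars show, for each library, the percentage that each paralogue contributes to the length-scaled level (CPM per kb) of its family. In the bFGF-treated libraries *PER3*, *BHLHE41* and *TEF* take larger shares, and *PER1*, *BHLHE40* and *DBP* smaller ones, than in every control and OIM library.

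Of the cryptochromes, partners of the PER proteins in repression, *CRY2* passed the adjusted p in bFGF against OIM and *CRY1* did not, and neither reached the fold limit. *CRY2* (chromosome 2, 16587101 to 16620380, minus strand) had 11.3, 13.0 and 10.3 in control, 14.6, 12.7 and 14.0 in OIM, and 8.41, 10.6 and 11.0 CPM with bFGF. The bFGF-treated libraries lay below all OIM libraries and overlapped with control. The log2 fold change of *CRY2* in bFGF against OIM was -0.45 (standard error 0.11, edgeR adjusted p = 0.0011). Over the fits without 1 library it ran from -0.53 (without bFGF replicate 3) to -0.34 (without bFGF replicate 1), and *CRY2* was called only without bFGF replicate 3 or without bFGF replicate 2 (-0.50). It was -0.23 with library totals alone. *CRY1* (chromosome 5, 13275265 to 13429566, plus strand) had 16.9 ± 0.905 CPM in control, 16.8 ± 0.586 CPM in OIM and 15.0 ± 0.638 with bFGF (SD, n = 3). Its bFGF-treated libraries, at 14.4, 14.8 and 15.7 CPM, lay below the lowest OIM library at 16.2 CPM, with a log2 fold change of -0.17 (edgeR adjusted p = 0.0569) that turned to 0.055 with library totals alone. The *CRY1* difference passed the adjusted p without bFGF replicate 3 (0.0457) or control replicate 2 (0.0495).

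In the positive limb the bFGF-treated libraries were higher for *ARNTL* and lower for *CLOCK*. *ARNTL* (chromosome 2, 45895637 to 46025174, minus strand) had 18.6, 18.6 and 19.8 in control, 15.8, 18.0 and 15.8 in OIM, and 18.3, 20.9 and 20.5 CPM with bFGF. OIM was lowest, without overlap with either other group. The log2 fold change was 0.27 in bFGF against OIM (standard error 0.078, edgeR adjusted p = 0.00511) and -0.20 in OIM against control (edgeR adjusted p = 0.104), and bFGF and control overlapped. Without OIM replicate 2 the OIM difference was -0.26 and passed the adjusted p (0.0315), still under the fold limit. The *ARNTL* difference between bFGF and OIM was 0.49 with library totals alone. *CLOCK* (chromosome 8, 54793323 to 54910192, minus strand) had 81.3, 86.0 and 86.5 in control, 75.6, 79.8 and 84.6 in OIM, and 67.7, 65.9 and 69.3 CPM with bFGF. Its difference of -0.24 (log2) between bFGF and OIM (standard error 0.047, edgeR adjusted p = 0.000133) is close to the shift between scalings, and with library totals alone it was -0.020.

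In bFGF against OIM the paralogues of both activator partners had differences of the same sign as the partners. In OIM against control *NPAS2* had 0.20 (edgeR adjusted p = 0.00377), under the fold limit, where *CLOCK* had -0.081. *ARNTL2* had -0.14 there, where *ARNTL* had -0.20. *NPAS2*, which can stand in for *CLOCK*, had 153 ± 2.18 CPM in OIM and 93.9 ± 2.55 with bFGF (SD, n = 3) and fell by 0.70 on the log2 scale (standard error 0.045, edgeR adjusted p = 2.88e-11), or by 0.48 with library totals alone. *ARNTL2* had 55.3 ± 4.40 CPM in OIM and 71.7 ± 0.425 with bFGF (SD, n = 3), a difference of 0.37 on the log2 scale (edgeR adjusted p = 3.37e-06) that is under the fold limit, and of 0.59 with library totals alone. The share of *CLOCK* in the summed length-scaled level of *CLOCK* and *NPAS2* was 36.0% ± 0.813 in control, 31.6% ± 1.41 in OIM and 38.9% ± 1.13 in bFGF (SD, n = 3). Within the *ARNTL* pair the share of *ARNTL* was 42.8% ± 1.93, 41.9% ± 0.393 and 40.1% ± 1.81 (SD, n = 3), with overlap between the groups.

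In the second loop the REV-ERB genes were nearly level between OIM and bFGF. *NR1D2* (chromosome 13, 10756954 to 10791219, plus strand) had 135, 133 and 134 in control, 145, 147 and 147 in OIM, and 148, 147 and 146 CPM with bFGF. An SD of 3 libraries is itself uncertain. The SD of *NR1D2* was under 1% of the mean in every group (0.572% in control, 0.891% in OIM and 0.701% in bFGF), the smallest among the 10. Its log2 fold change was 0.12 in OIM against control (standard error 0.034, edgeR adjusted p = 0.021) and 0.012 in bFGF against OIM (standard error 0.034, edgeR adjusted p = 0.770). The OIM difference missed the adjusted p without control replicate 3 (0.0682) or OIM replicate 3 (0.0603). *NR1D1* (chromosome 12, 22263549 to 22274131, plus strand) had 13.9, 15.1 and 14.3 in control, 15.8, 16.3 and 15.5 in OIM, and 17.6, 15.0 and 15.5 CPM with bFGF. The OIM libraries of *NR1D1* lay above control, and bFGF overlapped both, with a log2 fold change of 0.016 against OIM (standard error 0.079, edgeR adjusted p = 0.872). With library totals alone the bFGF differences of *NR1D2* and *NR1D1* against OIM were 0.23 and 0.24, about the shift of all genes. *NR1D1* made up 7.19% ± 0.309, 7.26% ± 0.169 and 7.27% ± 0.537 of the length-scaled REV-ERB level in control, OIM and bFGF (SD, n = 3).

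Of the activating receptors of the same elements, *RORA* fell with bFGF. *RORA* had 52.6, 52.7 and 54.4 in control, 51.1, 58.9 and 56.7 in OIM, and 19.1, 19.2 and 19.2 CPM with bFGF. Every bFGF-treated library was below every other library, and the log2 fold change against OIM was -1.53 (standard error 0.058, edgeR adjusted p = 7.01e-15). *RORB* was far lower, with 0.539 ± 0.153 CPM in OIM and 1.16 ± 0.236 with bFGF (SD, n = 3), and its libraries held 18 to 73 counts. It was called higher at 1.09 (standard error 0.42, edgeR adjusted p = 0.0266), but not without OIM replicate 1 (adjusted p = 0.104), bFGF replicate 2 (0.103) or bFGF replicate 3 (0.0555).

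Among the D-box factors, *DBP* (chromosome 6, 53986955 to 53993044, minus strand) fell with bFGF. It had 3.38, 3.23 and 3.75 in control, 4.58, 4.42 and 3.89 in OIM, and 1.96, 2.31 and 2.44 CPM with bFGF, from 105 to 288 counts per library. The 3 groups did not overlap, with OIM highest and bFGF lowest. The log2 fold change was -0.94 in bFGF against OIM (standard error 0.16, edgeR adjusted p = 2.93e-05), a 1.92-fold fall, and -0.63 against control (standard error 0.16, edgeR adjusted p = 0.0018). With library totals alone the change against control was -0.40, which is not called. OIM against control gave 0.31 (standard error 0.15, edgeR adjusted p = 0.200).

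*HLF*, a relative of *DBP* that binds the same element, had its group means in the same order. It had 3.79 ± 0.600 CPM in control, 6.27 ± 1.01 CPM in OIM and 3.15 ± 0.493 with bFGF (SD, n = 3). The rise in OIM was 0.73 on the log2 scale (standard error 0.16, edgeR adjusted p = 0.00404), and the change in bFGF against OIM was -0.99 (standard error 0.16, edgeR adjusted p = 2.22e-05). *TEF*, the third of these factors, had 29.0 ± 1.08, 33.0 ± 1.39 and 31.5 ± 0.855 CPM (SD, n = 3) and was not called in any comparison. Its log2 fold change of 0.18 in OIM against control (edgeR adjusted p = 0.0386) no longer passed the adjusted p without control replicate 1, control replicate 3, OIM replicate 1 or bFGF replicate 2 (0.124, 0.124, 0.162 and 0.0535). The D-box repressor *NFIL3* had 80.5, 84.9 and 83.0 in control, 73.6, 70.2 and 71.7 in OIM, and 15.3, 15.1 and 13.0 CPM with bFGF. Its fall of 2.31 on the log2 scale in bFGF against OIM (standard error 0.058, edgeR adjusted p = 1.91e-17) was the largest among the clock genes and lists examined. *DBP* supplied 15.4% ± 1.23 of the summed length-scaled level of *DBP*, *TEF* and *HLF* in control, 16.0% ± 0.739 in OIM and 10.0% ± 1.14 in bFGF (SD, n = 3), and *TEF* supplied 76.2% ± 2.20, 72.4% ± 1.22 and 83.0% ± 2.13 (SD, n = 3). With the longest transcripts the shares of *DBP* were 20.4%, 21.1% and 13.5%.

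In the whole list of 13 other loop genes, 11 were tested, and bFGF against OIM gave 1 higher (*RORB*) and 5 lower (*PER1*, *NPAS2*, *RORA*, *NFIL3* and *HLF*), with a median log2 fold change of -0.39, where 17.7% of all genes tested were called higher and 18.4% lower. *CIART* (5.77 ± 0.922 CPM in OIM and 5.32 ± 0.128 with bFGF) and *CIPC* (56.3 ± 1.85 and 60.3 ± 0.608 CPM, SD, n = 3), a pair of repressors of the activator, had adjusted p-values of 0.480 and 0.0552 in edgeR's test. *TIMELESS* was not analysed here. In OIM against control *HLF* was the only loop gene called, and 4 of the 11 passed the adjusted p alone, where the shares of all genes were 2.35% and 13.6%.

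Kinases and ubiquitin enzymes that act on clock proteins formed a further list, and 14 of its 15 genes were tested. With bFGF 2 were called higher than in OIM and 2 lower, 10 were not called and lay between -0.28 and 0.16, and the median was -0.16. The 4 calls among 14 stand beside 36.2% of all genes (17.7% higher and 18.4% lower). *USP2*, a deubiquitinase under clock control, rose from 1.67 ± 0.198 to 4.64 ± 0.556 CPM (SD, n = 3), by 1.47 on the log2 scale (edgeR adjusted p = 4.53e-07). *CSNK2A2*, a catalytic subunit of casein kinase 2, rose by 0.70 (edgeR adjusted p = 2.45e-12). *PRKAA2*, a catalytic subunit of the energy sensor AMPK, fell by 1.16 on the log2 scale (edgeR adjusted p = 1.16e-08). In OIM against control 0 of the 14 were called by edgeR or by DESeq2, and 3 were under an unadjusted p of 0.05 (26.2% of all genes). *CSNK1E* was not analysed here.

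Of 7 output genes, 6 were tested, and with bFGF 1 was higher and 3 were lower than in OIM, with a median of -0.62, beside 17.7% higher and 18.4% lower among all genes. *WEE1*, the kinase that holds back entry into mitosis, had 20.8 ± 0.997 CPM in OIM and 42.6 ± 1.36 with bFGF (SD, n = 3) and rose by 1.03 (edgeR adjusted p = 1.54e-11). *NOCT*, which encodes an enzyme expressed in a daily rhythm, and *CDKN1A*, which encodes a cell cycle inhibitor, fell by 0.84 and 0.74 on the log2 scale (edgeR adjusted p = 7.98e-09 and 4.67e-12). *AVP* had 0 counts in every library. All 7 genes of the input list were tested, and 2 were lower with bFGF (18.4% of all genes), while the other 5 were not called and lay between -0.35 and 0.45. *NR3C1*, the glucocorticoid receptor, had 130 ± 3.24 CPM in OIM and 77.7 ± 5.93 with bFGF (SD, n = 3), and *SIK1*, a kinase that restrains the signal of light and cAMP to the clock, had 62.5 ± 8.85 and 24.6 ± 0.591 CPM (SD, n = 3). These are falls of 0.74 and 1.35 on the log2 scale (edgeR adjusted p = 3.83e-11 and 1.27e-11). In OIM against control 0 genes of either list were called by edgeR or DESeq2, and 3 of the output genes and 2 of the input genes were under an unadjusted p of 0.05 (26.2% of all genes).

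Against control, bFGF gave the same 3 calls among the 10 clock genes (1 higher, 2 lower), where 39.0% of all genes tested were called (18.9% higher and 20.0% lower). This comparison shares its libraries with the others and adds no independent support. At the adjusted p alone 3 clock genes were higher and 4 lower (34.5% and 35.7% of all genes, 70.2% together). Of these, *PER2* (0.20, edgeR adjusted p = 0.0422) kept that p in 3 of the 9 fits without 1 library, and *CRY1* (-0.18, edgeR adjusted p = 0.0411) in 4 of the 9, with a DESeq2 adjusted p of 0.0673 and a change of sign to 0.047 with library totals alone. Against control the bFGF-treated libraries did not overlap in 7 of the 10 (73.7% of all genes).

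Annotated neighbours overlap some of the genes, and whether the counting used strand is not given in the sources used here. *CLOCK* shares 3027 exon bases, 44.3% of its own, with *TMEM165* on the other strand. *TMEM165* had log2 fold changes of 0.21 in OIM against control and -0.27 in bFGF against OIM, where *CLOCK* had -0.081 and -0.24. *NR1D1* shares 2985 exon bases, 41.1% of its own, with *THRA* on the other strand, and *THRA* fell by 0.52 on the log2 scale in bFGF against OIM (edgeR adjusted p = 7.98e-09), where *NR1D1* had 0.016. *CRY1* shares 9.15% of its exon bases with *TMEM263* on the other strand, which fell by 0.59 (edgeR adjusted p = 1.98e-10), and 13.9% with *MTERF2* on its own strand, listed at 0 counts in every library. *PRKAA2* shares 15.5% of its exon bases with *C6H1orf168*. The part of reads on shared exons in the levels of these genes was not tested.

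The genes most alike in pattern were sought outside the lists, by the root mean square difference of log2 CPM, centred on the gene mean, over the 9 libraries. For *BHLHE40* these were *DAB2* (0.066), *CLU* (0.081) and *PTGIS* (0.085), whose bFGF to OIM changes (log2) were -1.79, -1.54 and -1.66. For *PER3* they were *APEX2* (0.057), *PDP2* (0.058) and *PES1* (0.062), with log2 fold changes of 0.55, 0.58 and 0.61. The measure is on the log2 scale, so it is a likeness of relative change and not of level.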

How the data were processed

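RNA of PVICs from 3 groups (control, OIM and OIM with bFGF, 3 libraries each) was sequenced, and the labels gave each library's group and replicate number. The authors deposited 1 table of counts that were not normalized, which holds 19535 genes and 6179 circRNAs as whole numbers and 9888 non-coding transcripts as estimated counts (44.6% of their values not whole). Its 19 further columns have no name and no value and were not used. The paper's methods name Cutadapt, STAR, susScr11 and poly-A selection, whereas the submitters' processing notes name Trimmomatic, HISAT2, StringTie and Sscrofa11.1 and the labels a stranded kit that removes ribosomal RNA. Which of these made the table, and the counting program, are not given in the sources used here.

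Gene counts were fitted with edgeR 4.0.16 in R 4.3.3 (filterByExpr, TMM, quasi-likelihood test on all 9 libraries, 6 residual degrees of freedom). The p-values were adjusted by Benjamini-Hochberg over 13662 genes, and genes were called at an adjusted p up to 0.05 with a log2 fold change of 0.5 or more in either direction. Standard errors are the log2 fold change divided by the square root of F. The step was tested on simulated data. Exon lengths, overlaps and promoters come from RefSeq on Sscrofa11.1.

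The clock genes, the lists and the tests were chosen with earlier results of these data known. The 10 clock genes and the other loop genes were named in any case, and genes of the other lists only where called in OIM against control or bFGF against OIM, except that single values of some list genes are not reported here; the alike genes are the nearest 3 with a mean of at least 10 counts. Alternatives were DESeq2 1.42.0, other size factors, other filters, fold limits and samples, thinning to the smallest library, a replicate block and leaving out each library.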

Additional observations from a re-analysis of the deposited data

How the results depend on the processing

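The log2 fold changes of the 10 clock genes in 3 comparisons were set against all alternatives, and 542 of 570 values kept both their direction and their side of the thresholds. The other fold limits change only the threshold and keep the fitted value, so no direction could turn there. Most values count as kept by staying uncalled, since 10, 7 and 7 of the 10 genes were not called in the 3 comparisons. With library totals alone the direction turned for *PER2* (0.080) and *CRY1* (0.055) in bFGF against OIM and for *CRY1* (0.047) and *CRY2* (0.023) in bFGF against control, none of them called, since this scaling lifts all bFGF values by about the median shift. Leaving out single libraries turned values near 0 in OIM against control for *PER3* (-0.036 to 0.074) and *CRY1* (-0.044 to 0.032), and in bFGF against OIM for *NR1D1* (-0.058 to 0.061).

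The number of clock genes called higher and lower was 2 and 1 in OIM against control, 2 and 4 in bFGF against OIM and 3 and 4 in bFGF against control without a fold limit. With a limit of 1 it was 0 and 1 in both bFGF comparisons, and with library totals alone 1 clock gene was lower in bFGF against control. For this limit and this scaling the share of all genes called is not given here, so whether these counts differ from the background cannot be read. Leaving out single libraries gave 2 to 3 lower in bFGF against OIM. For the other clock lists together, with 11, 14, 6 and 7 genes tested, the numbers without a fold limit were 6 higher and 4 lower, 8 and 22, and 7 and 20 in the same order of comparisons. The shares of all genes without a fold limit were 7.69% higher and 5.87% lower, 33.8% and 33.5%, and 34.5% and 35.7%. With a limit of 1 the list genes called were 0 higher in OIM against control, 4 lower in bFGF against OIM, and 2 higher and 5 lower in bFGF against control. In bFGF against OIM *RORB* (1.09), *USP2* (1.47) and *WEE1* (1.03) were higher at this limit. Library totals alone gave 7 higher in bFGF against OIM, and leaving out single libraries 3 to 5 higher in each bFGF comparison. The shares of all genes called under these settings are not given here, so these counts have no background. With E′-boxes counted as well, 4 promoters of the 10 clock genes held an E-box in place of 1. Thinning, other filters, DESeq2 and fits on only 2 groups changed no call among the 10.

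Same-numbered libraries did not deviate together (9 pairs, r from -0.032 to 0.0035). This shows no strong shared deviation, but it cannot tell whether the numbers mark a common animal, culture or batch. With the replicate block, 1 clock gene was higher and 2 were lower in bFGF against OIM, as without it. Low counts limit *RORB* (18 to 73 per library), and also *USP2* (88 to 271), *DBP* (105 to 288) and *HLF* (150 to 403).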

Other observations

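Circular RNAs were matched to the clock genes by coordinates. There were 5 of them in 4 genes (*CLOCK*, *PER2*, *CRY1* and *NR1D2*), on the strand of the gene and with both ends at annotated exon ends, with 26 junction counts in all. The control libraries held 17 of these counts, the OIM libraries 9 and the bFGF-treated libraries 0, and a single circRNA had at most 5 counts in a library and counts in at most 2 libraries. At this depth a difference between the groups was not detectable for any one of them. The difference between the group sums was not tested, and the bFGF-treated libraries also had the lowest total gene counts.

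A non-coding transcript of the locus LOC106505661, on the other strand of *BHLHE40* and sharing 4 exon bases with it, had 43.5 to 58.5 estimated counts in the control libraries, 48.5 to 57.6 in OIM and 26.8 to 32.4 in bFGF. Scaled like the genes, it had 0.866 ± 0.185 in control, 0.897 ± 0.137 in OIM and 0.547 ± 0.0665 CPM with bFGF (SD, n = 3), with every bFGF-treated library below all others. This difference was not tested.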
